A study of Mus musculus with 24 samples.

Results

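The interferon-stimulated genes are the genes that cells switch on when interferon binds its receptor, and 40 of them, with their regulators, were followed here by name among the 57126 genes of the deposited count files. They were chosen by gene symbol, and all 40 symbols matched a gene in the files. RNA was read in the cerebellum and hippocampus of 12 mice of the strain BALB/cNctr-Npc1m1N/J, 4 mice in each of 3 groups, as 24 libraries. The first group was Npc1+/+ mice given vehicle, all 4 female, at postnatal day 65. The second was Npc1-/- mice given vehicle, 1 of 4 female, at postnatal day 63. The third was Npc1-/- mice given dipyridamole, 2 of 4 female, also at postnatal day 63. Vehicle was PBS with PEG400. Both it and the drug, at 30 mg/kg, went into the peritoneum on 5 days a week from postnatal day 28. The mutation is present in every cell of the Npc1-/- mice, and the labels describe the wild-type mice as their littermates. Because all Npc1+/+ mice were female, sex was a term in each test and was estimated from the Npc1-/- mice alone.

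Type I interferons signal through the receptor chains Ifnar1 and Ifnar2 and the kinases Jak1 and Tyk2. These phosphorylate signal transducers such as Stat2, which joins Irf9 in the complex ISGF3. ISGF3 binds the interferon-stimulated response element, a short DNA motif before many of these genes, and turns on antiviral proteins as well as Irf7 and Usp18, which carry the response forward and hold it back. In the brain these genes are known to be active in microglia, the resident immune cells, and in astrocytes and vessel cells. Npc1 carries cholesterol out of the lysosome, and its loss causes Niemann-Pick disease type C, in which Purkinje cells of the cerebellum die and microglia are activated. Dipyridamole blocks nucleoside transport and phosphodiesterases.

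The libraries held 1833609 to 11590081 counts. The shallowest was the cerebellum of Npc1-/- vehicle replicate 2. Levels are given as CPM, a gene's count scaled to the size of its library with TMM factors, in the order of replicates 1 to 4, and a replicate number is the same mouse in both tissues. Where 2 sets of 4 values stand side by side, the Npc1+/+ mice come first and the Npc1-/- vehicle mice second. Npc1 itself was at 102 to 112 CPM in Npc1+/+ cerebellum and 60.5 to 95.1 CPM in Npc1+/+ hippocampus. It was at 13.9 to 39.4 CPM in the Npc1-/- libraries, so each library matched its labelled genotype. The summed markers of hippocampal neurons were at 3024 to 7861 CPM in hippocampus and 335 to 465 CPM in cerebellum, with the lowest hippocampal value in the dipyridamole replicate 4. Markers of the choroid plexus, a tissue next to the hippocampus, ranged from 81.0 to 7918 CPM among hippocampal libraries and from 70.5 to 3052 CPM among cerebellar ones. The labels list an ion code as the batch of each library. Each library has its own code, except that dipyridamole replicate 4 has the same code for both tissues, so no value within a batch could be had. The Npc1+/+ libraries hold codes 101 to 112 and the Npc1-/- libraries codes 117 to 131. Genotype therefore cannot be told apart from these blocks of codes, or from age, at postnatal day 65 against 63.

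The DNA before the start of 29 of the 40 genes was at hand from RefSeq (mouse build GRCm38.p6). Within the 250 bases before the start, the letters GAAANNGAAA, or TTTCNNTTTC when read on the other strand, were found in 13 of the 29 (44.8%). They were found in 936 of 27025 genes overall (3.46%). These are letter matches and not measured binding. The 6 sequences below belong to the genes with such a match and the smallest hippocampal p for genotype. They are shown for the known target of ISGF3 in members described below, of which Gbp2 passed the genotype test in cerebellum alone and Gbp7 in neither tissue. Each is the 150 bases just before the start, 5′ to 3′ on the gene's strand, with the match in capitals.
Ifit1, chr19:34640739-34640888, plus strand: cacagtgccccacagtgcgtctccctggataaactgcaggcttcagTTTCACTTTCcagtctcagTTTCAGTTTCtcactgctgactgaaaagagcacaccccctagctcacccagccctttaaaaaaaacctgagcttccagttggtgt
Trim30a, chr7:104465194-104465343, minus strand: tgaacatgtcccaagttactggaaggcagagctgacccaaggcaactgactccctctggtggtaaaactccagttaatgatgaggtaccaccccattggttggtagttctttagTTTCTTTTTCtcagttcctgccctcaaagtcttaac
Lgals9, chr11:78984925-78985074, minus strand: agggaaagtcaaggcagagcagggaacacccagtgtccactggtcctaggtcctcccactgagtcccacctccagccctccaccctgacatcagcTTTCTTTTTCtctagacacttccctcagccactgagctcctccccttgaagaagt
Gbp3, chr3:142559894-142560043, plus strand: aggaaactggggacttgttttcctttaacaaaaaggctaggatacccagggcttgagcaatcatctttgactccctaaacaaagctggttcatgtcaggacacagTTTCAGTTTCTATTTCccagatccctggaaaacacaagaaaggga
Gbp2, chr3:142620513-142620662, plus strand: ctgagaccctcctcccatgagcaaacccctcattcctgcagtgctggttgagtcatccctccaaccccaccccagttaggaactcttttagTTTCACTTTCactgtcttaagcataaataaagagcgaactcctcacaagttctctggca
Gbp7, chr3:142530186-142530335, plus strand: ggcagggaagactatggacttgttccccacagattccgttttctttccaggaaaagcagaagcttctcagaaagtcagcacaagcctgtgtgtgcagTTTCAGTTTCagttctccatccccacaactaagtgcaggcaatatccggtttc

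Ifit1 held the motif at 2 places, with first bases 104 and 85 bases before the start, and Gbp3 held 2 overlapping copies 45 and 39 bases before it. The motif began 36 bases before the start of Trim30a, 55 before Lgals9, 59 before Gbp2 and 53 before Gbp7. In these 6 genes it lay in the TTTCNNTTTC reading on the gene's strand. Among the genes that passed the genotype test in at least 1 tissue, 7 of the 12 with a sequence held it. Among those tested that passed in neither tissue, 2 of 10 held it, and among those tested in neither tissue, 4 of 7 did. Irf7, Oasl2, Ifi44, Lgals3bp and Slfn2 passed the test in both tissues and had no match in this window. These counts were not tested, and the genes within the Gbp cluster are relatives of each other.

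**Figure D1:**
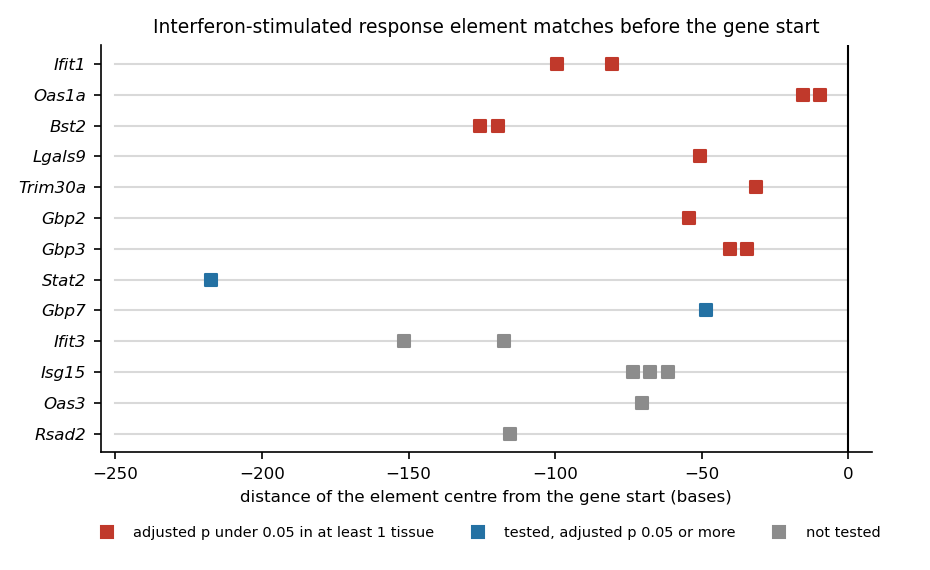
Distance in bases from the gene start (x axis) of each match to the interferon-stimulated response element letters, for the 13 genes with a match. Squares are centres of matches, coloured by the outcome of the genotype test: 7 genes passed in at least 1 tissue, 2 were tested and did not pass, and 4 were not tested.

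Interferon-stimulated genes were higher in vehicle-treated Npc1-/- mice than in Npc1+/+ mice in both tissues. In cerebellum 30 of the 40 were abundant enough to test, and 14 rose and none fell (edgeR quasi-likelihood test, adjusted p under 0.05). Over all 12921 genes tested in cerebellum, 5.91% rose. In hippocampus 31 could be tested, and 10 rose and none fell, where 1.02% of 12740 genes rose. The median log2 fold change of the tested members was 1.16 in cerebellum and 1.09 in hippocampus, against 0.0064 and -0.013 for all genes. The fold change was above 0 for 29 of 30 members in cerebellum and 27 of 31 in hippocampus, against 50.7% and 48.6% of all genes. The 10 that rose in hippocampus were also among the 14 that rose in cerebellum of the same mice: Ifit1, Irf7, Oasl2, Ifi44, Rtp4, Lgals3bp, Lgals9, Trim30a, Gbp3 and Slfn2. Oas1a, Usp18, Bst2 and Gbp2 rose in cerebellum and missed the threshold in hippocampus. The filter on low counts can pass a gene only through the group where it is high: of the 14 that rose in cerebellum, 6 lay below the filter level in at least 1 Npc1+/+ library, and of the 10 in hippocampus 1 did, so these counts are a description. With no filter, 14 rose in cerebellum, which were 13 of the 14 above and Parp9, where 918 of 19178 genes rose. In hippocampus 9 of the 10 rose with no filter, where 152 of 19185 genes did.

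In the annotation of the deposited files (GRCm39), the genes that rose in both tissues lie on several chromosomes. Ifit1 spans chr19:34618271-34627409 on the plus strand, beside Ifit2 and Ifit3. Irf7 spans chr7:140842619-140846394 and Ifi44 chr3:151436559-151455597, both on the minus strand. On chromosome 11, Lgals3bp spans chr11:118283577-118292918 (minus), Lgals9 chr11:78853800-78875772 (minus) and Slfn2 chr11:82955938-82961504 (plus). The counts are amplicon reads assigned to the exons of each gene, so levels of different genes are not set against each other.

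These calls rest in part on 1 mouse, Npc1-/- vehicle replicate 3, the only female of its group. Without its library, no member passed in hippocampus, where 31 genes passed in all, while the members' median was 0.97. The smallest adjusted p of the 10 was then 0.150, for Trim30a. Without it in cerebellum, 6 members rose, where 312 of 13075 genes did: Lgals3bp, Oasl2, Slfn2, Ifi44, Bst2 and Gbp2. The remaining Npc1-/- vehicle mice are then all male, so that the sex term rests on the dipyridamole group. A fit of female mice alone has that mouse as the only vehicle-treated Npc1-/- animal, and its spread is then taken from the other groups. The members' median log2 fold change in that fit was 1.00 in cerebellum and 0.99 in hippocampus, against -0.015 and -0.032 for all genes. Without the shallowest library, cerebellar replicate 2, the 14 members rose in cerebellum, where 982 of 13066 genes did.

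**Figure D2:**
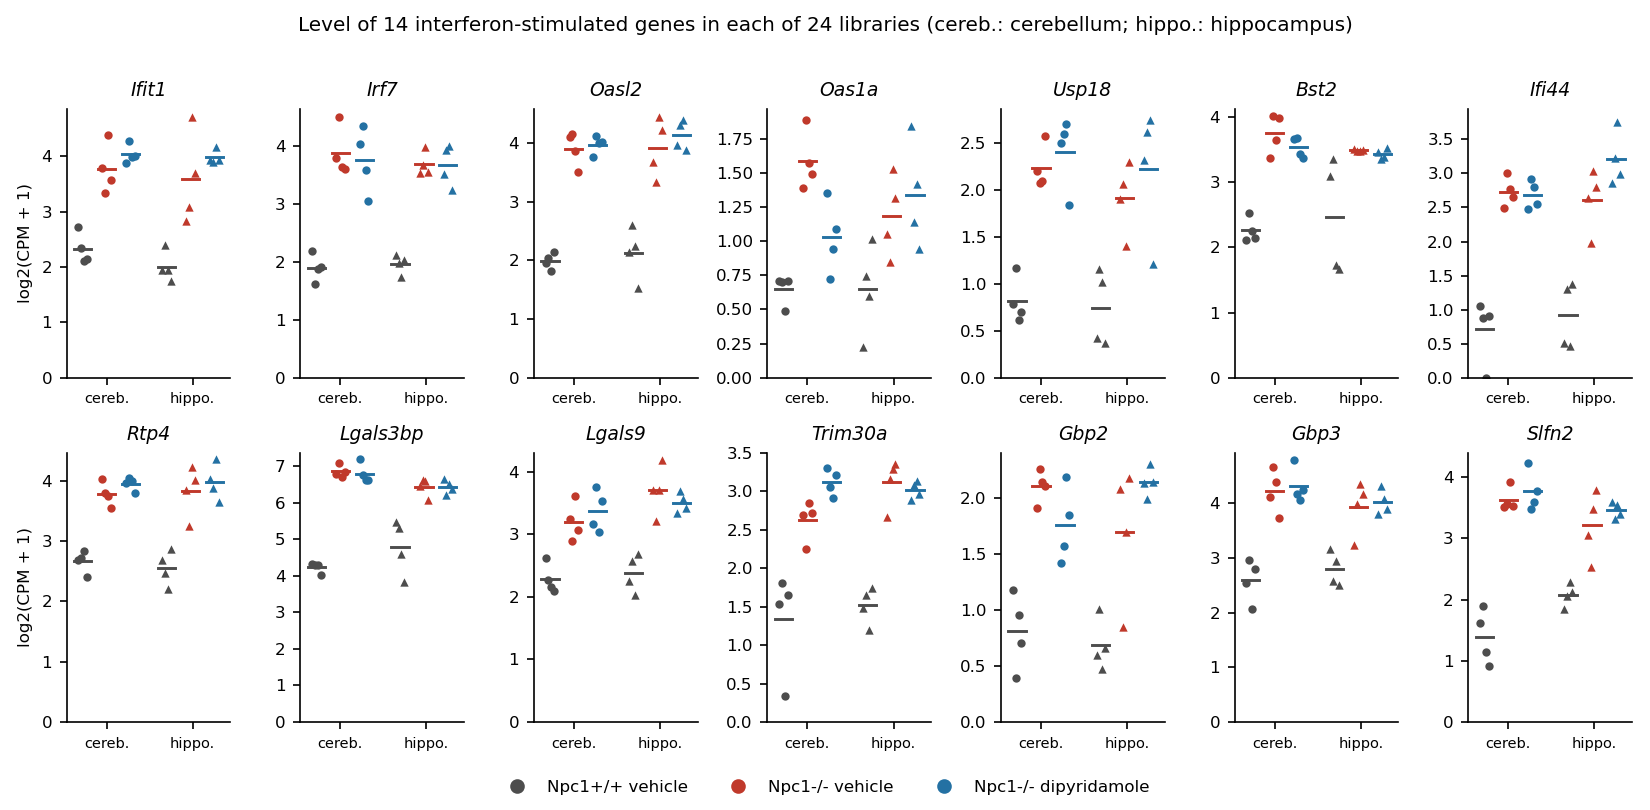
Level on a log2(CPM + 1) scale (y axis, a scale per panel) of the 14 genes that passed the genotype test in at least 1 tissue, with 1 point per library and a line at the group mean. Circles are cerebellum and triangles hippocampus. The Npc1-/- libraries lie above the Npc1+/+ libraries in cerebellum for each of the 14, and in hippocampus for all but Oas1a, Bst2 and Gbp2. The 14 were chosen by the test on these same libraries, so this is a description.

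Among the regulators, Irf7, the transcription factor that drives interferon-alpha genes, rose in both tissues. In cerebellum Irf7 was at 3.53, 2.08, 2.67 and 2.77 CPM in Npc1+/+ mice and at 12.9, 21.5, 11.4 and 11.1 CPM in Npc1-/- vehicle mice. In hippocampus Irf7 was at 3.35, 2.94, 2.32 and 3.07 CPM and at 10.6, 11.7, 14.8 and 10.7 CPM. The groups did not overlap in either tissue, and the high cerebellar value belongs to the shallowest library. Irf7 rose 3.46-fold in cerebellum (log2 fold change 1.79 ± 0.31, standard error, adjusted p 0.00104) and 4.36-fold in hippocampus (2.12 ± 0.28, adjusted p 0.00153). Usp18, the protease that strips Isg15 from proteins and blocks the receptor, was at 0.724, 1.25, 0.534 and 0.630 CPM in Npc1+/+ cerebellum and at 3.62, 3.23, 3.29 and 4.96 CPM in the Npc1-/- vehicle mice. In hippocampus Usp18 was at 0.344, 1.24, 1.03 and 0.292 CPM and at 2.76, 3.19, 1.64 and 3.92 CPM. Neither pair of groups overlapped, and replicate 3 was the lowest Npc1-/- vehicle hippocampus. Usp18 rose 4.12-fold in cerebellum (2.04 ± 0.43, adjusted p 0.00473). Its hippocampal log2 fold change of 1.48 ± 0.65 had an adjusted p of 0.376. Irf9 and Stat2, which are subunits of ISGF3, did not pass in either tissue. Irf9 differed by 0.23 ± 0.34 in cerebellum and 0.30 ± 0.34 in hippocampus, and Stat2 by -0.13 ± 0.23 and 0.04 ± 0.31.

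Of the Ifit and Oas families, which act on viral RNA, Ifit1 and Oasl2 rose in both tissues. Ifit1 captures viral messenger RNA that lacks the host's cap methylation. In cerebellum Ifit1 was at 5.61, 4.06, 3.34 and 3.40 CPM in Npc1+/+ mice and at 12.9, 9.15, 20.0 and 10.8 CPM in Npc1-/- vehicle mice. In hippocampus Ifit1 was at 2.83, 4.29, 2.83 and 2.34 CPM and at 6.13, 7.44, 25.1 and 12.1 CPM. All Npc1-/- libraries were above all Npc1+/+ libraries, and replicate 3 was the highest in both tissues. Ifit1 rose 3.77-fold in cerebellum (1.91 ± 0.28, adjusted p 0.000168) and 5.70-fold in hippocampus (2.51 ± 0.36, adjusted p 0.00227). Without replicate 3 its log2 fold changes were 1.35 (adjusted p 0.0545) and 1.63 (adjusted p 0.237). Ifit2, a relative in the same cluster on chromosome 19, differed by 0.37 ± 0.41 and 0.13 ± 0.43 and did not pass.

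Oas proteins make the oligoadenylates that activate RNase L, and Oasl2 is a related protein. In cerebellum Oasl2 was at 2.89, 3.12, 2.54 and 3.40 CPM and at 16.1, 16.7, 13.6 and 10.4 CPM. In hippocampus Oasl2 was at 3.44, 5.08, 3.73 and 1.90 CPM and at 11.8, 9.04, 20.7 and 17.7 CPM. The groups were separate in both tissues. Oasl2 rose 4.69-fold (2.23 ± 0.26, adjusted p 1.39e-05) in cerebellum and 4.83-fold (2.27 ± 0.35, adjusted p 0.00398) in hippocampus. Oas1a, which was low throughout, was at 0.633, 0.624, 0.400 and 0.630 CPM in Npc1+/+ cerebellum and at 1.62, 2.69, 1.97 and 1.80 CPM in Npc1-/- vehicle cerebellum. The hippocampal values of Oas1a, 0.172, 0.678, 0.515 and 1.02 CPM against 1.07, 0.797, 1.88 and 1.49 CPM, overlapped. It rose in cerebellum (1.66 ± 0.50, adjusted p 0.0411), a call that 8 of 22 alternative fits kept, and had an adjusted p of 0.473 in hippocampus (1.23 ± 0.64). Oas2 did not pass at 0.86 ± 0.59 and 1.32 ± 0.50, although its Npc1-/- vehicle hippocampal libraries, at 1.53 to 2.13 CPM, lay above the Npc1+/+ ones at 0.438 to 1.02 CPM.

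Ifih1, Dhx58 and Eif2ak2, whose proteins bind double-stranded RNA, did not pass the genotype test in either tissue. Ifih1, the sensor MDA5 for long double-stranded RNA, was at 1.99 to 4.67 CPM in Npc1+/+ and 5.25 to 10.8 CPM in Npc1-/- vehicle cerebellum, with a log2 fold change of 0.73 ± 0.35 (adjusted p 0.214). Its hippocampal difference was 0.57 ± 0.36. Dhx58, which tunes that sensor, differed by 0.61 ± 0.45 and -0.29 ± 0.52. Eif2ak2, the kinase PKR that stops translation on double-stranded RNA, differed by 0.34 ± 0.53 and 0.49 ± 0.49.

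Ifi44, whose product is a cytoplasmic protein of the response, had the largest genotype fold among the members in both tissues. In cerebellum Ifi44 was at 1.08, 0.832, 0 and 0.882 CPM in Npc1+/+ mice and at 4.62, 7.00, 5.79 and 5.26 CPM in Npc1-/- vehicle mice. In hippocampus Ifi44 was at 0.429, 1.47, 0.386 and 1.61 CPM and at 5.21, 2.92, 7.17 and 5.96 CPM. One Npc1+/+ cerebellum held no count, and no Npc1+/+ library reached the lowest Npc1-/- library of its tissue. Ifi44 rose 7.44-fold (2.90 ± 0.47, adjusted p 0.000557) in cerebellum and 7.20-fold (2.85 ± 0.49, adjusted p 0.00924) in hippocampus. Rtp4, an interferon-induced chaperone of receptors, was at 5.43, 5.62, 6.14 and 4.29 CPM and 15.2, 12.9, 12.4 and 10.7 CPM in the same 2 groups of cerebellum. In hippocampus Rtp4 was at 5.41, 4.52, 3.60 and 6.28 CPM and at 13.3, 8.51, 17.9 and 15.2 CPM. Both tissues showed separate groups, with rises of 2.27-fold (1.18 ± 0.23, adjusted p 0.00279) and 3.19-fold (1.68 ± 0.30, adjusted p 0.0116). In the annotation 13.9% of its exonic bases overlap the gene Gm45338, and counting ignored strand. Whether its amplicon reads fall there is not known here.

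Trim30a, a tripartite motif protein that restrains NF-kB signalling, was at 1.90, 2.50, 0.267 and 2.14 CPM in Npc1+/+ cerebellum and 5.50, 3.77, 6.18 and 5.56 CPM in the Npc1-/- vehicle mice. In hippocampus Trim30a was at 1.80, 2.15, 1.29 and 2.34 CPM and 5.36, 7.97, 8.81 and 9.20 CPM. The third Npc1+/+ cerebellum was well below its group, and the genotypes did not overlap. Trim30a rose 3.15-fold (1.65 ± 0.42, adjusted p 0.0175) and 4.43-fold (2.15 ± 0.31, adjusted p 0.00227). Slfn2, a Schlafen protein of immune cells, was at 2.08, 2.71, 1.20 and 0.882 CPM in Npc1+/+ and 10.4, 10.8, 14.2 and 10.5 CPM in Npc1-/- vehicle cerebellum. In hippocampus Slfn2 was at 2.58, 3.16, 3.86 and 3.36 CPM and 7.35, 4.78, 10.2 and 12.9 CPM. It was separate between genotypes in both tissues, with a rise of 6.63-fold (2.73 ± 0.34, adjusted p 3.91e-05) in cerebellum and 2.94-fold (1.56 ± 0.34, adjusted p 0.0327) in hippocampus.

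The guanylate-binding proteins are large GTPases that attack membranes of intracellular microbes, and their genes sit together on chromosome 3. Gbp3 was at 4.79, 6.76, 3.20 and 5.92 CPM in Npc1+/+ and 16.4, 24.2, 20.0 and 12.3 CPM in Npc1-/- vehicle cerebellum. In hippocampus Gbp3 was at 7.99, 4.97, 6.70 and 4.67 CPM and 8.43, 14.9, 19.4 and 17.1 CPM. The cerebellar groups were far apart and the hippocampal groups nearly met. Gbp3 rose 3.22-fold (1.69 ± 0.31, adjusted p 0.00138) and 2.65-fold (1.41 ± 0.32, adjusted p 0.0410), and 10 of 23 alternative fits kept the hippocampal call. Gbp2 was at 1.27, 0.312, 0.934 and 0.630 CPM and 2.75, 3.77, 3.42 and 3.31 CPM in cerebellum. In hippocampus Gbp2 was at 0.515, 1.02, 0.386 and 0.584 CPM and 3.22, 0.797, 2.23 and 3.52 CPM. The groups overlapped in hippocampus through the second Npc1-/- mouse alone. Gbp2 rose 5.04-fold in cerebellum (2.33 ± 0.46, adjusted p 0.00272), and in hippocampus its difference of 2.01 ± 0.54 had an adjusted p of 0.0971. Gbp7 did not pass, with 0.74 ± 0.24 (adjusted p 0.0614) and 0.77 ± 0.28 (adjusted p 0.250).

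Lgals3bp, a secreted glycoprotein that binds galectins, had the smallest genotype p among the members in cerebellum. In cerebellum Lgals3bp was at 19.2, 18.7, 18.7 and 15.2 CPM in Npc1+/+ mice and at 109.8, 136, 104 and 114 CPM in Npc1-/- vehicle mice. In hippocampus Lgals3bp was at 43.3, 38.5, 23.1 and 13.3 CPM and at 87.9, 97.8, 95.3 and 66.3 CPM. The Npc1+/+ hippocampi fell into a higher pair, replicates 1 and 2, and a lower pair, and all lay below the Npc1-/- mice. Lgals3bp rose 5.48-fold (2.45 ± 0.17, adjusted p 2.99e-08) and 3.04-fold (1.60 ± 0.34, adjusted p 0.0303). Bst2, the tetherin that holds budding virus at the cell surface, was at 3.35, 4.79, 3.74 and 3.40 CPM in Npc1+/+ and 9.37, 15.1, 11.4 and 14.7 CPM in Npc1-/- vehicle cerebellum. In hippocampus Bst2 was at 7.56, 9.26, 2.32 and 2.19 CPM and 10.4, 10.1, 10.1 and 10.3 CPM. Its Npc1+/+ hippocampi split into the same pairs. Bst2 rose 2.87-fold in cerebellum (1.52 ± 0.26, adjusted p 0.000816), and in hippocampus it differed by 0.92 ± 0.46 (adjusted p 0.447). Lgals9, the galectin that engages Tim-3, was at 5.16, 3.85, 3.47 and 3.28 CPM in Npc1+/+ and 8.49, 6.46, 11.2 and 7.37 CPM in Npc1-/- vehicle cerebellum. In hippocampus Lgals9 was at 3.78, 4.97, 3.09 and 5.41 CPM and 12.1, 8.24, 12.1 and 17.3 CPM. No Npc1+/+ value of Lgals9 reached an Npc1-/- one, and it rose 2.29-fold (1.20 ± 0.30, adjusted p 0.0153) and 2.84-fold (1.51 ± 0.31, adjusted p 0.0249).

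Choroid plexus markers moved with that split of the Npc1+/+ hippocampi. The 11 markers summed to 3026 and 3564 CPM in replicates 1 and 2 and to 81.0 and 126 CPM in replicates 3 and 4. Npc1-/- vehicle hippocampi held 4677, 7918, 163 and 630 CPM of the markers. Across them Bst2 lay at 10.1 to 10.4 CPM and Lgals3bp at 66.3 to 97.8 CPM, without such pairs. Dipyridamole hippocampi held 108 to 4983 CPM of the markers, with Bst2 at 9.22 to 10.5 CPM and Lgals3bp at 73.5 to 98.8 CPM. None of the 11 markers passed the genotype test in either tissue, but this is no sign of balance between the groups. With the sex term, their median log2 fold change was -0.17 in cerebellum and -3.10 in hippocampus. The mean of their sum in hippocampus, without that term, was 1699 CPM in Npc1+/+ and 3347 CPM in Npc1-/- vehicle mice. When the 7 hippocampal libraries with under 1000 CPM of these markers were fitted alone, with 2 Npc1+/+, 2 Npc1-/- vehicle and 3 dipyridamole mice, Bst2 rose (2.19 ± 0.34, adjusted p 0.0312). Lgals3bp was at 2.30 ± 0.27 (adjusted p 0.00847) and Ifit1 at 3.05 ± 0.35 (adjusted p 0.00809) in that fit. In that fit 4 members rose in all, 3 of them among the 10 that rose in all hippocampal libraries, where 42 of 12810 genes rose. With the marker level as a covariate, 9 members rose in hippocampus, where 118 of 12740 genes did. In cerebellum 14 rose with the covariate, where 857 of 12921 genes did. These fits were added after the values had been seen, and the part of choroid plexus tissue in the other results was not tested.

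**Figure D3:**
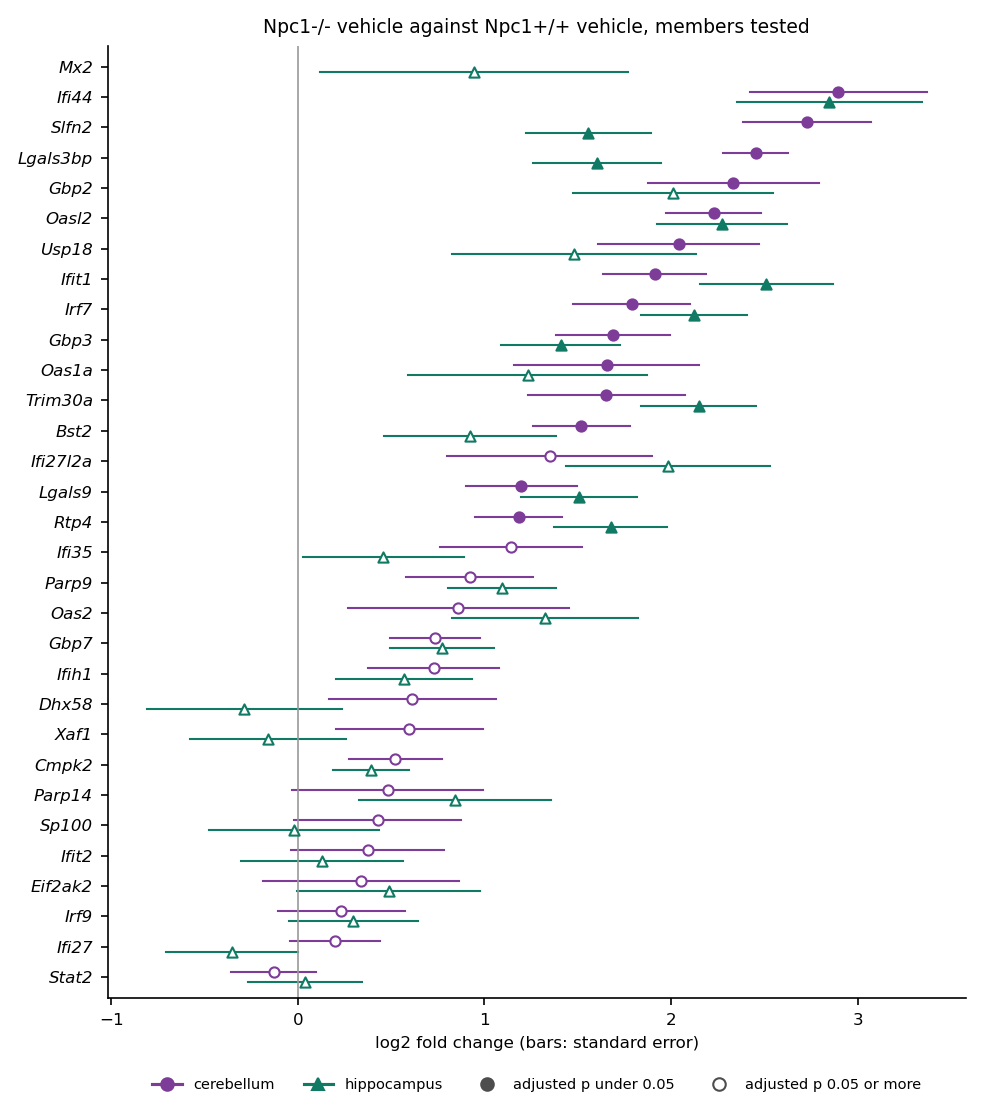
Log2 fold change of Npc1-/- vehicle against Npc1+/+ vehicle (x axis) with its standard error for the 30 members tested in both tissues and Mx2, tested in hippocampus. Filled points passed an adjusted p of 0.05: 14 in cerebellum and 10 in hippocampus, all above 0.

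The other 16 members tested in both tissues passed in neither. They were Ifit2, Irf9, Stat2, Oas2, Ifi27, Ifi27l2a, Ifi35, Ifih1, Dhx58, Xaf1, Parp9, Parp14, Gbp7, Eif2ak2, Cmpk2 and Sp100. Their log2 fold changes ran from -0.13 (Stat2) to 1.35 (Ifi27l2a) in cerebellum and from -0.35 (Ifi27) to 1.98 (Ifi27l2a) in hippocampus. Closest to the threshold were Gbp7 and Ifi35 in cerebellum, with adjusted p of 0.0614 and 0.0668, and the ADP-ribosyltransferase Parp9 in hippocampus, with 0.0904. Parp9 was at 4.12, 5.31, 3.73 and 4.82 CPM in Npc1+/+ and at 8.73, 10.9, 8.93 and 7.44 CPM in Npc1-/- vehicle hippocampus, with no overlap. Its 95% interval, a log2 fold change of 0.47 to 1.71, lay above 0. Without the sex term Parp9 passed in both tissues. Cmpk2, a mitochondrial nucleotide kinase, and Xaf1, an antagonist of the apoptosis inhibitor XIAP, differed by 0.52 ± 0.25 and 0.60 ± 0.39 in cerebellum. Ifi27 was at 46.8, 51.0, 29.7 and 24.8 CPM in Npc1+/+ hippocampus, with the same higher pair as Lgals3bp.

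9 members were tested in neither tissue, and Mx2 only in hippocampus (0.94 ± 0.83, adjusted p 0.700). Isg15, a ubiquitin-like protein that is joined to other proteins, and Ifit3 had no count in any of the 24 libraries. A count of 0 allows up to 3 counts, which is 0.259 to 1.64 CPM at the depth of these libraries, for counting error only. Whether the amplicon panel reads these genes is not given in the sources used here. The dynamin-like GTPase Mx1 had 1 count over the 4 Npc1+/+ cerebella and 8 over the Npc1-/- vehicle cerebella. In hippocampus it had 1 and 9, with 30 in the dipyridamole mice. Rsad2, the radical enzyme viperin, had 2 and 5 counts in cerebellum and 1 and 6 in hippocampus. Zbp1, a sensor of Z-form nucleic acid, had 5 and 15 counts in cerebellum and 5 and 6 in hippocampus. Oasl1 and Oas3 had at most 9 counts in a group, and Samd9l at most 4. Herc6, an Isg15 ligase, had 11 to 20 counts in each group. No test is given for these.

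The genes of the wider interferon pathway were read from lists of the ligands, receptors, sensors and other targets. No ligand could be tested: 10 of 21 interferon genes had any count, and all of them together came to 19 to 31 counts in a group of 4 libraries. Ifng had none, and Ifnb1 had 0 to 3 counts in a group. Of the receptors and kinases, 1 of 7 tested rose in cerebellum, the signal transducer Stat3 (0.74 ± 0.17, adjusted p 0.00819). None of 7 passed in hippocampus, where Stat3 differed by 0.63 ± 0.17 (adjusted p 0.0904) and the interferon-gamma receptor Ifngr1 by 0.44 ± 0.21. The median of the list was 0.067 in cerebellum and -0.033 in hippocampus. Il10rb had no count in any library. Of the feedback inhibitors, the phosphatase Ptpn6 rose in cerebellum (2.44 ± 0.37, adjusted p 0.000253), 1 of 6 tested, and none of 6 passed in hippocampus, where Ptpn6 differed by 1.38 ± 0.39 and the Isg15-activating enzyme Uba7 by 1.33 ± 0.41. The list's median was 0.32 and 0.35. Socs1 had no count.

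Among sensors of nucleic acids, 4 of 15 rose in cerebellum and 1 of 16 in hippocampus, with medians of 0.45 and 0.15. The endosomal receptor for single-stranded RNA, Tlr7, rose in cerebellum (3.48 ± 0.40, adjusted p 1.61e-05), as did its transporter Unc93b1 (2.02 ± 0.26), Tlr8 (2.64 ± 0.74) and the DNA receptor Tlr9 (2.47 ± 0.41). Tlr9 also rose in hippocampus (2.07 ± 0.41, adjusted p 0.0196). Of the other interferon-regulatory factors, Irf8, Irf5 and Irf1 rose in cerebellum, 3 of 4 tested. Irf8, a factor of the myeloid lineage, was at 2.08 to 4.34 CPM in Npc1+/+ and 10.2 to 19.4 CPM in Npc1-/- vehicle cerebellum (2.49 ± 0.31, adjusted p 3.63e-05). Irf5 rose by 1.60 ± 0.43 and Irf1 by 0.97 ± 0.29, and the median of the 4 was 1.28. None passed in hippocampus, where Irf8 differed by 1.26 ± 0.37, Irf5 by 1.53 ± 0.46 and the median was 0.98.

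Of 62 further interferon-stimulated genes outside the 40, 36 could be tested in cerebellum and 37 in hippocampus, and 12 and 6 rose, with none falling. Their median log2 fold change was 0.67 and 0.71. The chemokine Cxcl10 rose by 4.47 ± 0.72 in cerebellum (adjusted p 0.000492) and 5.46 ± 0.72 in hippocampus (adjusted p 0.00146). It was at 0 to 0.452 CPM in Npc1+/+ and 4.93 to 9.07 CPM in Npc1-/- vehicle hippocampus. B2m, the light chain of MHC class I, rose from a mean of 38.1 CPM to 112 CPM in cerebellum (1.54 ± 0.17) and from 46.3 CPM to 84.7 CPM in hippocampus (1.01 ± 0.16). Ifi44l, the neighbour and relative of Ifi44, rose by 3.49 ± 0.51 and 4.09 ± 0.62. The immunoproteasome subunit Psmb8 rose by 1.60 ± 0.27 and 1.44 ± 0.30, and Epsti1 by 2.96 ± 0.55 and 2.45 ± 0.46.

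Markers of microglia moved in the same libraries. In whole tissue, more cells of a type and more RNA per cell cannot be told apart. Of 12 microglia markers, 8 rose in cerebellum, where their sum went from 174 to 185 CPM in Npc1+/+ mice to 515 to 658 CPM in Npc1-/- vehicle mice. In hippocampus none of the 12 passed, and the sum was 354 to 483 CPM and 536 to 675 CPM. Markers of activated microglia rose in 13 of 14 cases in cerebellum, from 331 to 366 CPM to 1532 to 1666 CPM. In hippocampus 8 of 14 rose, from 299 to 388 CPM to 541 to 638 CPM. None of the markers in these lists was at 0 throughout. The part of microglia in the rise of the interferon-stimulated genes was not tested. Of the astrocyte markers 3 of 9 rose and 1 fell in cerebellum, and 2 of 8 rose in hippocampus. Gfap, the filament of reactive astrocytes, rose by 3.78 ± 0.18 and 1.80 ± 0.18. In hippocampus 9 of 10 oligodendrocyte markers fell.

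Blood-derived and vascular cells were read in the same way. Markers of lymphocytes and plasmacytoid dendritic cells, the main producers of type I interferon in blood, summed to at most 2.03 CPM in any library, none of the 15 could be tested, and Cd3g, Cd79a and Klk1 had no count. Of the monocyte and neutrophil markers, 2 of 10 could be tested in cerebellum and 1 in hippocampus, none passed, and Chil3 and Cxcr2 had no count. Their sum was 30.6 to 66.6 CPM in Npc1+/+ and 77.4 to 104 CPM in Npc1-/- vehicle cerebellum. In hippocampus the sum was 27.9 to 41.2 CPM and 39.6 to 51.0 CPM, with overlap. Most of the 10 were too low to test, so the sum rests on few genes, and the cells behind it were not tested. None of 6 border macrophage markers passed in cerebellum and none of 3 in hippocampus, and none of 9 endothelial markers passed in either.

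Summarised for each mouse as the mean log2(CPM + 1) of the 30 members tested in both tissues, the level in cerebellum was 2.15 ± 0.063 (SD, n = 4) in Npc1+/+ and 3.21 ± 0.11 in Npc1-/- vehicle mice. In hippocampus it was 2.22 ± 0.11 and 3.00 ± 0.13. The ranges did not overlap: the highest Npc1+/+ library was at 2.20 in cerebellum and 2.36 in hippocampus, and the lowest Npc1-/- library at 3.12 and 2.87. Of the members tested, 10 in each tissue lay below the filter level in at least 1 Npc1+/+ library. Such genes can pass the filter through the Npc1-/- groups, and no such mean was taken for other genes, so the gap is a description. Within the vehicle-treated Npc1-/- group the order of the mice differed between tissues. Npc1-/- vehicle replicate 2 had the highest mean of its group in cerebellum and the lowest in hippocampus, and replicate 3 the lowest in cerebellum and the highest in hippocampus. Replicate 2 held the group's highest value for 16 of the 30 genes in cerebellum, in the shallowest library. Replicate 3 held it for 12 of the 30 in hippocampus.

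**Figure D4:**
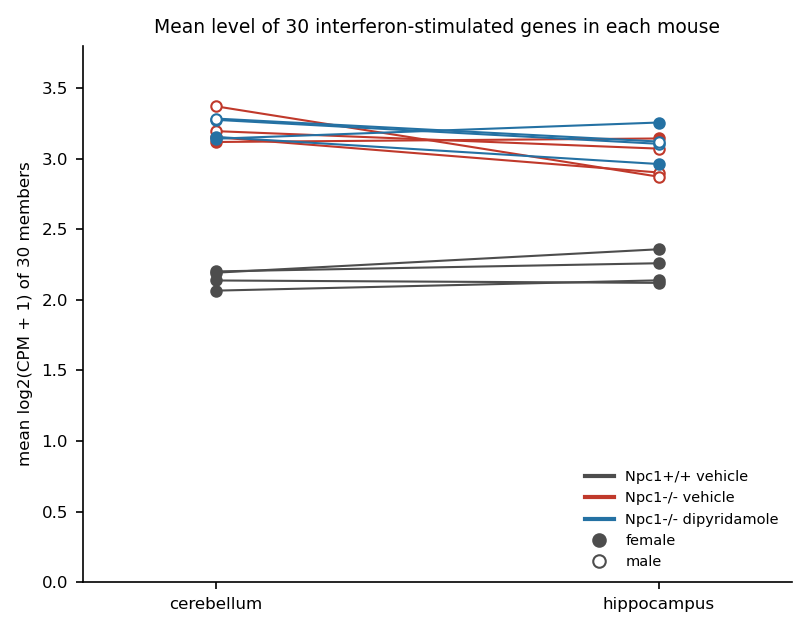
Mean log2(CPM + 1) of 30 members (y axis, from 0) in cerebellum and hippocampus, with a line joining the tissues of each mouse and filled points for females. The Npc1+/+ mice lie between 2.07 and 2.36 and all Npc1-/- mice, with and without dipyridamole, between 2.87 and 3.37.

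Whether genotype acted differently in the 2 tissues was tested within animals, in a model of all 24 libraries. None of 31 members passed (edgeR, adjusted p under 0.05), where 1.15% of 13436 genes did in either direction. At an unadjusted p under 0.05 there were 2 members, both with a smaller rise in hippocampus: Slfn2 (difference -1.22 ± 0.50 in log2 fold change, adjusted p 0.425) and Lgals3bp (-0.74 ± 0.31, adjusted p 0.441). Ifit1 was next, with 0.57 ± 0.41 towards hippocampus (adjusted p 0.799). DESeq2 gave none either. With the tissue by sex term left out, Lgals3bp passed (-1.03, adjusted p 0.0363). The median difference was -0.16 for the members and 0.0044 for all genes. The intervals were wide: for Usp18 and Gbp2, which passed in cerebellum and not in hippocampus, they were -1.93 to 0.78 and -2.09 to 1.35. In the same model Slfn2 and Lgals3bp started higher in Npc1+/+ hippocampus than in Npc1+/+ cerebellum.

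In Npc1+/+ mice 5 of 31 members were higher in hippocampus than in cerebellum, against 21.8% of all genes, and 1 was lower, against 21.3%. Higher were Xaf1 (0.93 ± 0.36), Slfn2 (1.01 ± 0.32), Ifi27 (0.78 ± 0.23), Lgals3bp (0.74 ± 0.18) and Cmpk2 (0.54 ± 0.18). Stat2 was lower, at 30.3, 19.4, 26.6 and 17.8 CPM in hippocampus and 38.2, 36.5, 53.1 and 44.0 CPM in cerebellum (-0.76 ± 0.17, adjusted p 0.00125). With each Npc1+/+ mouse left out in turn, 2 to 4 members were higher. Without replicate 2 and without replicate 3 it was 2, and without replicate 1 it was 3. Lgals3bp and Ifi27 were high in the 2 Npc1+/+ hippocampi that held choroid plexus markers.

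Dipyridamole did not change any interferon-stimulated gene detectably against vehicle in Npc1-/- mice. None of 30 members passed in cerebellum and none of 31 in hippocampus, where 0% of all genes passed in either tissue. No member reached an unadjusted p under 0.05, against 300 genes of 12921 in cerebellum and 93 of 12740 in hippocampus. DESeq2 called no member either. The median log2 fold change of the members was 0.088 in cerebellum and 0.065 in hippocampus, beside -0.0097 and -0.014 for all genes. Fitted without a filter on low counts, 13 genes passed in cerebellum, and no member was among them. Since no gene passed, none of the other interferon lists or of the cell markers did either. Microglia markers summed to 520 to 668 CPM in treated and 515 to 658 CPM in vehicle-treated Npc1-/- cerebellum.

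Single genes show how closely treated mice sat to vehicle mice and how much room the error leaves. Ifit1 was at 13.6, 18.3, 14.9 and 15.0 CPM in treated cerebellum and 14.3, 13.8, 17.1 and 14.3 CPM in treated hippocampus. The treated mice lay inside the vehicle range in both tissues and were less spread in hippocampus. The 95% interval of the log2 difference was -0.33 to 0.61 in cerebellum and -0.45 to 0.79 in hippocampus. Irf7 was at 15.4, 19.3, 11.0 and 7.23 CPM and 10.4, 14.3, 14.9 and 8.40 CPM in the treated mice. Its intervals were -0.45 to 0.56 and -0.50 to 0.47, and the groups overlapped in both tissues. Lgals3bp was at 146, 107, 98.2 and 97.2 CPM and 98.8, 73.5, 90.4 and 82.4 CPM. With -0.27 to 0.32 in cerebellum it had the narrowest interval of the genes that rose with genotype.

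The smallest treatment p in cerebellum were those of Oas1a, Stat2 and Trim30a. Oas1a was at 1.55, 0.653, 0.919 and 1.13 CPM in treated cerebellum, with a log2 difference of -0.80 ± 0.39 (p 0.0558, adjusted p 0.9998 in edgeR). The treated and vehicle ranges of Oas1a did not overlap. Stat2 differed by 0.30 ± 0.18 (p 0.122) and Trim30a by 0.50 ± 0.32 (p 0.139). In hippocampus the smallest were those of the nuclear-body protein Sp100 (0.58 ± 0.36, p 0.125), Ifi44 (0.54 ± 0.37, p 0.163) and Usp18 (0.67 ± 0.48, p 0.179). Ifi44 was at 6.25, 8.34, 12.5 and 6.96 CPM in treated hippocampus, with replicate 3 the highest. In hippocampus each had an adjusted p of 0.9999. No interval of a member reached beyond -1.61 or 1.55 in cerebellum, or -1.09 or 1.85 in hippocampus.

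**Figure D5:**
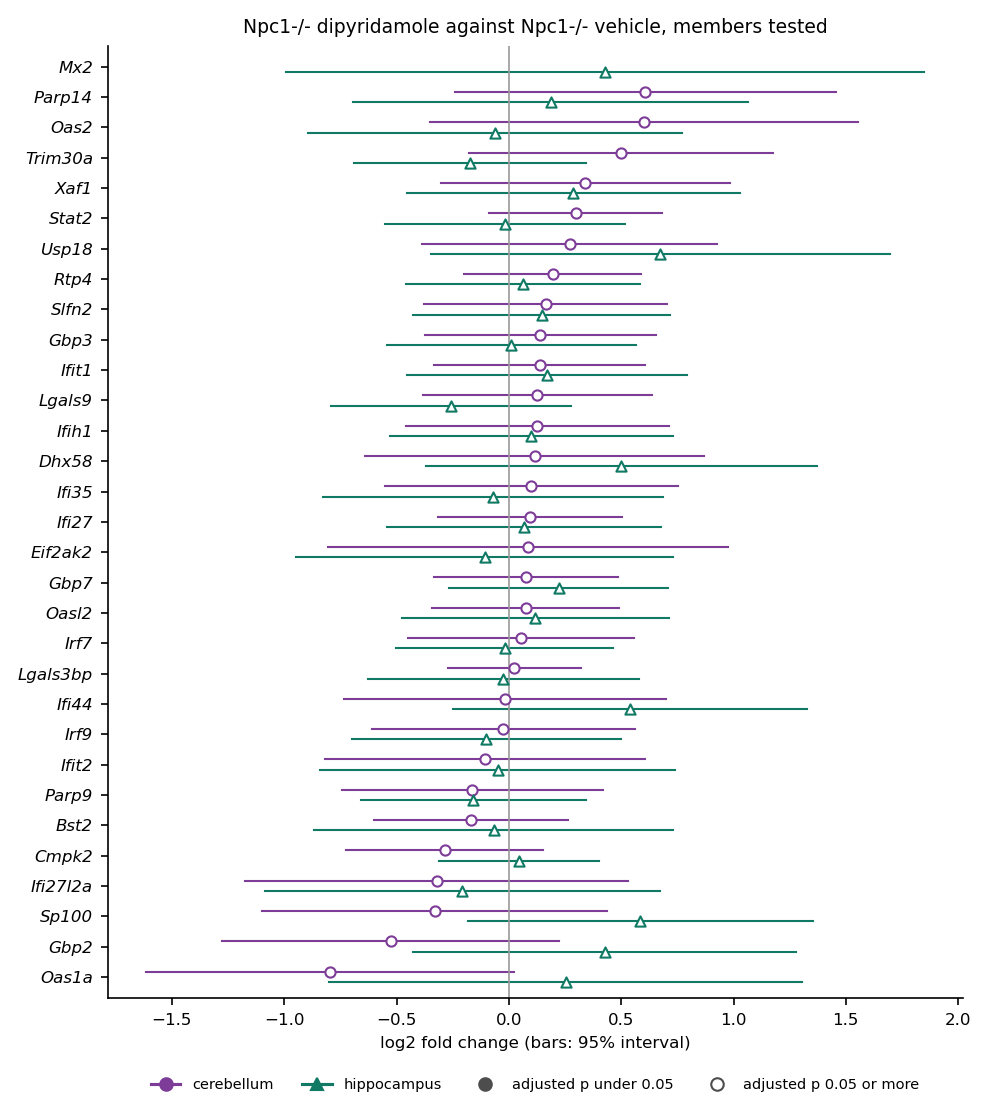
Log2 fold change of Npc1-/- dipyridamole against Npc1-/- vehicle (x axis) with its 95% interval for each member tested in cerebellum (circles) and hippocampus (triangles). No point is filled, since none of 30 and 31 members passed, and the interval of each covers 0.

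Treated Npc1-/- mice stayed above Npc1+/+ mice. This comparison uses the same Npc1+/+ libraries as the genotype comparison, and so its values are given on their own. In cerebellum 16 of 30 members were higher and none lower, where 8.13% of genes were higher. In hippocampus 12 of 31 were higher and none lower, where 1.59% were. The limit of the filter holds here too, so these counts are a description. Below the filter level in at least 1 Npc1+/+ library were Oas2, Usp18, Ifi44, Trim30a, Gbp2 and Slfn2 in cerebellum, and Ifi44 and Gbp2 in hippocampus. Lgals3bp was 5.57-fold higher in treated cerebellum (2.48 ± 0.16, adjusted p 6.60e-09) and Ifi44 10.5-fold in treated hippocampus (3.39 ± 0.45, adjusted p 0.000871). Among the regulators, Irf7 was higher by 1.84 ± 0.29 and 2.10 ± 0.26 and Usp18, in cerebellum, by 2.31 ± 0.38. Of the RNA-binding proteins, Ifit1 was higher by 2.05 ± 0.26 and 2.68 ± 0.35 and Oasl2 by 2.30 ± 0.23 and 2.39 ± 0.33. Rtp4 (1.38 ± 0.21 and 1.74 ± 0.28), Lgals9 (1.32 ± 0.27 and 1.25 ± 0.28), Trim30a (2.15 ± 0.37 and 1.98 ± 0.28), Slfn2 (2.89 ± 0.32 and 1.70 ± 0.31) and Gbp3 (1.83 ± 0.28 and 1.42 ± 0.30) passed in both tissues. Ifi44 was higher in treated cerebellum (2.88 ± 0.43), as was Bst2 (1.35 ± 0.23), and Lgals3bp in treated hippocampus (1.58 ± 0.31). Gbp7 passed in both tissues (0.81 ± 0.21 and 1.00 ± 0.25), with the hippocampal call kept in 9 of 23 alternative fits, and so did Gbp2 (1.81 ± 0.41 and 2.44 ± 0.47). Oas2 (1.46 ± 0.48, adjusted p 0.0497) and Ifi35 (1.24 ± 0.32, adjusted p 0.0141) passed in cerebellum. The Oas2 call was kept in 13 of 22 alternative fits, and 16.8% of the exonic bases of Ifi35 overlap the gene Gm11626. The mean level of the 30 members was 3.21 ± 0.076 (SD, n = 4) in treated cerebellum and 3.11 ± 0.12 in treated hippocampus. In hippocampus the treated replicate 4, with the fewest hippocampal markers, had the lowest mean of its group, 2.96. Without replicate 3 of the treated hippocampi, or without replicate 3 of the Npc1+/+ hippocampi, 7 members passed there.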

How the data were processed

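The 24 deposited files hold whole-number counts of reads per gene, which the authors made from Ion AmpliSeq libraries, a targeted panel of short amplicons. Per the submitters' processing notes, FastQC 0.11.9, Trimmomatic 0.39, STAR 2.7.9a and featureCounts 2.0.3 were used with build GRCm39, and per the file headers counting ignored strand. Gene symbols were found for 51884 of 57126 identifiers, and rows without one held 0.21% of counts. No amplicon coordinates were used here. Limits given for a count of 0 cover counting error only, and the labels name no molecular identifiers.

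Within each tissue, the deposited counts of all 12 libraries were fitted with edgeR 4.0.16 (R 4.3.3): TMM factors, filterByExpr over the 3 groups (minimum count 10), robust quasi-likelihood with group and sex, and Benjamini-Hochberg adjustment over all genes tested, at a threshold of 0.05. The tissue difference and the Npc1+/+ tissue comparison used 1 model of 24 libraries with the mouse as block and tissue by group and tissue by sex terms. The mouse number in the labels pairs the tissues, and the correlation of deviations from the group means over genes ran from -0.43 to 0.485 over the 12 mice (8 above 0.1). Standard errors and 95% intervals are those of the fit. The mean level used a pseudocount of 1. The scripts were tested on simulated data. DESeq2 1.42.0 and the other alternatives are given in the closing section.

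The 40 members, the other gene lists and the tests were chosen with earlier results of these data known. The genes given library by library are those past the threshold for genotype in either tissue. Where none passed, the 3 with the smallest p are given, and from other lists up to 6 genes that passed. A group is separate from another where their libraries' values do not overlap. The share of all genes with separate groups was not counted, so separation describes single genes and is no further test.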

Additional observations from a re-analysis of the deposited data

Results flagged for a closer look

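Among 105 groups of 4 libraries checked, 7 held a library whose gap to the nearest other exceeded Dixon's 95% critical share of the group's range. Chance gives about 1 in 20 such groups. Ifit1 was high in the hippocampus of dipyridamole replicate 3, at 17.1 CPM against 13.8 to 14.3 CPM in the other treated mice. Irf7 was high in the cerebellum of Npc1-/- vehicle replicate 2, the shallowest library, at 21.5 CPM against 11.1 to 12.9 CPM. Slfn2 was high in the cerebellum of Npc1-/- vehicle replicate 3, at 14.2 CPM against 10.4 to 10.8 CPM. Oas1a was low in the cerebellum of Npc1+/+ replicate 3, at 0.400 CPM against 0.624 to 0.633 CPM. Lgals3bp was low in the cerebellum of Npc1+/+ replicate 4, at 15.2 CPM against 18.7 to 19.2 CPM. The cerebellum of dipyridamole replicate 2 had 6117929 counts, the fewest of its group. The choroid plexus markers were at 4983 CPM in the hippocampus of dipyridamole replicate 1 and at 108 to 387 CPM in the rest of that group.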

How the results depend on the processing

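No call of a member reversed its direction under the alternatives run, and no member passed as lower with genotype. Members' medians without calls crossed 0: from -0.256 to 0.081 for the tissue difference, and for dipyridamole against vehicle from -0.032 to 0.108 in cerebellum and -0.02 to 0.223 in hippocampus. Of the counts of genes and members passing, 208 of 231 under other settings and 231 of 252 with a library or mouse left out stayed within 1.5 times their value. Counts of 0 that stayed 0 are among these, such as members lower with genotype and members under dipyridamole against vehicle. The share kept among counts above 0 is therefore lower. Of the calls of single members, 516 of 584 and 554 of 648 were kept. In cerebellum Bst2, Ifi44, Lgals3bp, Oasl2 and Slfn2 passed in all 22 alternatives. In hippocampus Ifit1 and Oasl2 passed in 21 of 23, Irf7 in 20, Trim30a in 19, Rtp4 and Ifi44 in 18, Lgals3bp in 16, Lgals9 in 13, Slfn2 in 11 and Gbp3 in 10. The members' median genotype effect ran from 1.00 to 1.27 in cerebellum and from 0.92 to 1.51 in hippocampus.

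For genotype in cerebellum, 1286 genes passed; 2249 did without the sex term, 613 with the replicate block and 421 with only the 2 groups compared. For genotype in hippocampus, 206 passed; 490 did without the sex term, 55 with the replicate block, 419 in DESeq2, 47 with only the 2 groups compared, 51 in female mice and 48 in the libraries low in choroid plexus markers. The 10 hippocampal members became 1 with the replicate block (Lgals3bp) and 3 with only the 2 groups compared. In the libraries low in choroid plexus markers 4 members passed, 3 of them among the 10. For dipyridamole against Npc1+/+ mice, 1864 genes passed in cerebellum and 1171 with the replicate block. In hippocampus 342 passed; 195 did with the replicate block, 689 in DESeq2, 179 in female mice and 131 in the libraries low in choroid plexus markers, and the 12 members became 6 with the replicate block. For dipyridamole against vehicle, 13 genes passed in cerebellum with no filter. For the tissue difference 155 genes passed, 386 without the tissue by sex term, and 1 member was then lower. Without TMM, 3 members instead of 5 were higher in Npc1+/+ hippocampus. The cause of these shifts was not tested.

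The replicate numbers name different mice in each group. Deviations of same-numbered libraries correlated over genes from -0.404 to 0.462 in cerebellum (3 of 12 pairs above 0.1) and from -0.396 to 0.577 in hippocampus (5 of 12), so the block is given here alone. With it 10 of the 14 cerebellar members passed.

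With each library left out in turn, genotype gave 474 to 1866 genes and 6 to 14 members in cerebellum, and 31 to 238 genes and 0 to 11 members in hippocampus. The lowest values were those without Npc1-/- vehicle replicate 3. Hippocampal genes also fell to 118 and 102 without Npc1+/+ replicates 2 and 3 and to 122 without dipyridamole replicate 1, and members to 6 without Npc1+/+ replicate 3 and without dipyridamole replicate 3. Dipyridamole against vehicle gave 0 to 0 in each tissue. Dipyridamole against Npc1+/+ mice gave 858 to 2307 genes and 14 to 17 members in cerebellum (858 without dipyridamole replicate 4, 1203 without replicate 3), and 130 to 428 genes and 7 to 12 members in hippocampus. There it gave 130 without dipyridamole replicate 4 and 199 and 178 without Npc1+/+ replicates 2 and 3. The tissue difference gave 27 to 227 genes and no member. It gave 27 with Npc1-/- vehicle mouse 3 left out, and leaving out the third Npc1+/+ mouse gave 90. The Npc1+/+ tissues gave 4752 to 6142 genes, with 2 to 4 members higher and 1 lower. In both tissues 9 members did not pass the filter on low counts, 2 of them (Isg15 and Ifit3) with no count.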
